A study of Sus scrofa with 8 samples.

Results

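The genes described here are those for collagen chains and for the enzymes and the chaperone that modify, fold or cross-link collagen in porcine pancreatic ductal organoids (PPDO). They were chosen by symbol alone: every COL gene with a chain number, the lysyl hydroxylases PLOD1 to PLOD3, the prolyl 4-hydroxylase subunits P4HA1 to P4HA3, LOX and LOXL1 to LOXL4, P3H1 to P3H4, SERPINH1, COLGALT1 and COLGALT2. The rule found 57 of the 30282 genes in the table, namely 39 chains and 18 modifying genes. PPDO are cultures of ductal epithelium grown from pig pancreas, and 8 bulk libraries of polyadenylated RNA compared 4 lines in both of 2 media.

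The lines were 1 embryonic (Em), 1 late postnatal (LPN) and 2 early postnatal (EPN1 and EPN2) line. The pigs were German landrace, wild type or carrying an INS-eGFP transgene that is expressed under the porcine insulin promoter, and the genotype of each line is not given in the sources used here. Each line contributed 1 library from complete medium (control) and 1 from differentiation medium (treated). The differentiation medium lacked WNT3a, R-spondin1, noggin, FGF10, EGF, gastrin and prostaglandin E2. For maintaining PPDO, the study replaced the WNT3a, R-spondin1 and noggin proteins with an L-WRN conditioned medium supplement. Whether the complete medium of these libraries held that supplement is not stated. Both media held N2, B27 without vitamin A, nicotinamide, N-acetyl-cysteine, the ROCK inhibitor Y-27632 and A83-01, an inhibitor of TGF-beta receptors, and both cultures sat in domes of Cultrex, a basement membrane extract. The sample titles separate control from treated libraries, whereas the treatment entry gives all 8 libraries the same endocrine induction text. Lines were read from the column names.

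A collagen is a triple helix of alpha chains, some of which form banded fibrils in connective tissue, some the sheet under epithelia (basement membrane), and some a link through the cell membrane. In the endoplasmic reticulum, prolines and lysines of the new chain are hydroxylated, some hydroxylysines receive sugars, and the chaperone encoded by SERPINH1 holds the folded helix; after secretion, lysyl oxidases cross-link the fibres. Ductal epithelium is known for basement membrane collagen, whereas fibrillar collagen of the pancreas comes mainly from stellate cells and fibroblasts.

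The libraries held 40553593 to 47910657 counts. Values below are CPM (counts scaled to the library total, with edgeR's TMM factors), and 3 counts, the limit that a count of 0 allows, correspond to 0.0619 to 0.0731 CPM. The study's methods speak of gene length scaled salmon output, and whether these values carry that scaling was not settled, so a count here may differ from a read. Intervals and floors of this kind cover counting error only. Gene lengths were not available, so levels are compared between libraries and not between genes. Of 14475 genes that passed the filter on low counts, edgeR's quasi-likelihood test with Benjamini-Hochberg adjustment called 1009 at adjusted p under 0.05, which is 6.97% of those tested, 593 of them lower (4.10%) and 416 higher (2.87%) in differentiation medium. A second edgeR fit that pairs the media by line (blocked fit) called 19.9%, 10.4% lower and 9.48% higher. All 7 markers of duct epithelium used (EPCAM, CDH1, KRT7, KRT8, KRT18, SOX9 and CFTR) passed the filter, and their summed level was 6534 to 9080.0 CPM in complete and 3801 to 14044 CPM in differentiation medium. The first fit called 0 of them and the blocked fit 1, CDH1, which was higher in 4 of 4 lines (adjusted p = 0.0172). In differentiation medium all except CDH1 were lower in EPN2, with KRT8 from 2271 to 425 CPM, and all except CFTR were higher in Em.

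Among the genes of collagen modification, the 3 prolyl 4-hydroxylase subunits, PLOD1, LOXL2, LOXL4 and P3H3 were called lower in differentiation medium, with log2 fold changes of -1.93 to -4.12. Of 18 such genes, 15 passed the filter, 7 were called lower and 0 higher by edgeR, against the 6.97% of all genes called in either direction; 8 had an unadjusted p under 0.05, all 8 of them lower, and DESeq2 without and with the line also called 0 higher, and 8 lower without it (9.97% of all genes). Their median log2 fold change (differentiation over complete) was -1.17, beside 0.01 over all genes tested. The media did not overlap for 8 of the 15, all lower (9.96% of all genes tested; 8.82% did not overlap and were higher), and 11 of the 15 were lower in 4 of 4 lines (24.2% of all genes). In the blocked fit, 9 were called lower, against 10.4% of all genes. The 7 genes called without the line had adjusted p of 0.00658 (LOXL4) to 0.0377 (P4HA3) in that fit. P4HA1 was at 0.0086, P4HA2 at 0.00856 and P3H3 at 0.0126. The fits that left out 1 library had medium as the only term and did not pair the lines. Leaving out 1 library gave 2 to 7 calls: 2 without EPN1 and 3 without LPN of differentiation medium, 3 without EPN1 and 4 without LPN of complete medium. In bulk RNA, fewer cells of a type and less RNA per cell cannot be told apart. Values below are given in the order Em, LPN, EPN1 and EPN2, log2 fold changes carry their SE, and adjusted p-values are from edgeR over all genes tested.

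**Figure D1:**
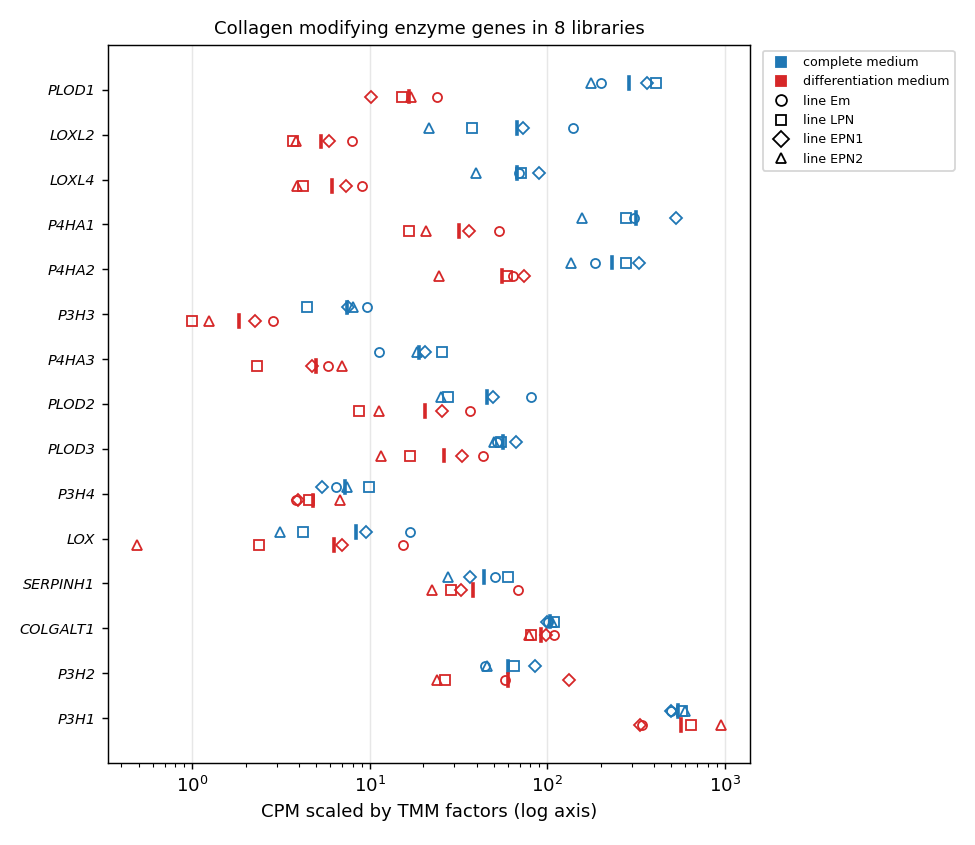
CPM (log axis) of the 15 modifying genes that passed the filter, in 8 libraries, with complete medium in blue, differentiation medium in red, line by marker shape and a bar at the mean of 4 libraries. The media separate fully for 8 genes (PLOD1, LOXL2, LOXL4, P4HA1, P4HA2, P3H3, P4HA3 and PLOD3) and overlap for the others, among them PLOD2, which is drawn above PLOD3.

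All 3 catalytic alpha subunits of prolyl 4-hydroxylase, the enzyme whose hydroxyprolines keep the helix stable at body temperature, were called lower. P4HA1 (ENSSSCG00000010292, RefSeq position chr14:75827207-75919121 on Sscrofa11.1) read 308, 276, 528 and 157 CPM in complete and 53.2, 16.7, 36.2 and 20.8 CPM in differentiation medium. Every differentiation library lay below every complete library, with EPN1 the highest in complete medium and LPN the lowest in differentiation medium. The log2 fold change was -3.32 ± 0.5 (adjusted p = 0.0158), and without the EPN1 library of differentiation medium the adjusted p was 0.0616. P4HA2 (ENSSSCG00000020915, chr2:134502210-134595444) stood at 186, 277, 327 and 137 CPM in complete and 63.8, 59.1, 74 and 24.5 CPM in differentiation medium. The groups did not overlap, and EPN2 was the lowest line in both media. Its log2 fold change was -2.06 ± 0.4 (adjusted p = 0.0283); the call held without either EPN2 library, and without any one of the other 6 libraries the adjusted p was 0.0525 to 0.0826. P4HA3 (ENSSSCG00000014840, chr9:8627365-8681804) was measured at 11.2, 25.6, 20.4 and 18.5 CPM against 5.82, 2.32, 4.71 and 6.98 CPM. Em was the lowest line in complete medium and lay above all 4 differentiation libraries. The change was -1.93 ± 0.39 on the log2 scale (adjusted p = 0.0312), and the adjusted p was 0.0565 to 0.0971 when LPN or EPN1 in complete medium, or Em, LPN or EPN1 in differentiation medium, was left out.

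Among the lysyl hydroxylases, PLOD1 had the most negative log2 fold change of the 15 genes. PLOD1 (ENSSSCG00000003433, chr6:71987938-72019712), which hydroxylates lysines within the helix, was at 200.1, 409, 366 and 177 CPM in complete and 23.9, 15.2, 10.2 and 17.1 CPM in differentiation medium. EPN2, the lowest complete library, stood far above Em, the highest differentiation library, so the media did not overlap. PLOD1 changed by -4.12 ± 0.39 (adjusted p = 0.00568) and was called in all 8 fits that left out 1 library. PLOD2 (ENSSSCG00000011689, chr13:86402673-86513167), which acts on the telopeptides at the chain ends, read 81.4, 27.5, 49.4 and 25.3 CPM and 36.5, 8.73, 25.4 and 11.2 CPM. It was lower in 4 of 4 lines, but Em and EPN1 in differentiation medium reached the range of LPN and EPN2 in complete medium, so the media overlapped. PLOD2 was called only in the blocked fit (-1.17 ± 0.55, adjusted p = 0.213 without the line; -1.24 ± 0.15, adjusted p = 0.0126 with it). PLOD3 (ENSSSCG00000028879, chr3:8911787-8919525), which also transfers sugars to hydroxylysine, gave 52, 54.8, 66.7 and 50.3 CPM and 43.4, 16.9, 33.1 and 11.6 CPM. The media did not overlap, and Em was the least changed line. PLOD3 had an adjusted p of 0.122 without the line (-1.09 ± 0.39) and 0.0475 with it (-1.27 ± 0.32).

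Of the lysyl oxidases, copper-dependent enzymes that start the cross-links of collagen and elastin, LOXL2 and LOXL4 were called lower and LOX was not called. LOXL4 (ENSSSCG00000010532, chr14:109571942-109593408) was at 69, 70.8, 89.5 and 39.7 CPM in complete and 9.02, 4.2, 7.38 and 3.88 CPM in differentiation medium. All 4 differentiation libraries lay below 10 CPM and all 4 complete libraries above 39 CPM. LOXL4 changed by -3.46 ± 0.37 on the log2 scale (adjusted p = 0.00728) and kept its call in all 8 fits that left out a library. LOXL2 (ENSSSCG00000033608, chr14:7435861-7540699), known to cross-link collagen IV, read 139, 37.7, 73.1 and 21.6 CPM against 7.98, 3.67, 5.88 and 3.83 CPM. Em was the highest line in both media, and the media did not overlap. Its log2 fold change was -3.67 ± 0.61 (adjusted p = 0.0197); the adjusted p was 0.0619 to 0.0738 without EPN1 of complete medium, LPN of differentiation medium or EPN1 of differentiation medium. LOX (ENSSSCG00000014232), the founding member of the family, gave 16.8, 4.19, 9.52 and 3.14 CPM and 15.4, 2.38, 7.02 and 0.49 CPM. It was lower in 4 of 4 lines, by 1.09-fold in Em and 6.41-fold in EPN2, while the media overlapped over most of their range (log2 fold change -0.41 ± 0.94, adjusted p = 0.808). LOXL1, best known for elastin, fell under the filter with counts of 346, 36, 22 and 2 in complete and 4, 3, 7 and 0 in differentiation medium. Most of its counts came from Em in complete medium. LOXL3 had 18, 11, 12 and 9 and 3, 4, 7 and 0 counts and was not tested either.

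The prolyl 3-hydroxylases did not move together. P3H3 (ENSSSCG00000000681, chr5:63871506-63885294), a partner of lysyl hydroxylase 1 in the endoplasmic reticulum, was at 9.71, 4.44, 7.55 and 8.0 CPM in complete and 2.87, 1.0, 2.26 and 1.24 CPM in differentiation medium, with no overlap. The log2 fold change was -2.01 ± 0.42 (adjusted p = 0.0350); the call held without EPN2 of complete or Em of differentiation medium, and the adjusted p was 0.0581 to 0.0945 without any one of the other 6 libraries. P3H4 (ENSSSCG00000017429), another member of that complex, read 6.46, 9.85, 5.41 and 7.42 CPM and 3.86, 4.53, 3.96 and 6.84 CPM (-0.60 ± 0.29, adjusted p = 0.221). P3H1 (ENSSSCG00000023920, chr6:168668275-168687832), which works in a complex with CRTAP and cyclophilin B, was at 499, 570.4, 499.8 and 596 CPM in complete and 340.2, 646, 331 and 951 CPM in differentiation medium. Its complete libraries lay close together, while in differentiation medium Em and EPN1 lay below them and LPN and EPN2 above. The log2 fold change of P3H1 was 0.07 ± 0.34 (adjusted p = 0.922), and -0.075 in the blocked fit. P3H2 (ENSSSCG00000011813), active on basement membrane collagen, read 44.6, 64.8, 84.9 and 45.6 CPM and 57.7, 26.4, 132 and 23.9 CPM, higher in Em and EPN1 and lower in LPN and EPN2 in differentiation medium (0.00 ± 0.55, adjusted p = 0.997; -0.30 in the blocked fit).

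The chaperone and the galactosyltransferase, which adds galactose to hydroxylysine, were not called. SERPINH1 (ENSSSCG00000039468) read 51, 59.8, 36.7 and 27.6 CPM in complete and 68.2, 28.6, 32.5 and 22.3 CPM in differentiation medium, higher in Em and lower in the other 3 lines (-0.21 ± 0.39, adjusted p = 0.761). COLGALT1 averaged 104 ± 4.13 CPM (SD, n = 4) in complete and 91.9 ± 14.8 CPM in differentiation medium (-0.18 ± 0.13, adjusted p = 0.414). It had the smallest SE of the 15 genes, and the gene name table pairs its identifier (ENSSSCG00000013883) with another symbol, so its identity is uncertain. COLGALT2 had at most 4 counts in any library. Summed over the 18 genes, the enzymes and the chaperone came to 1784, 2002, 2265 and 1419 CPM in complete and 841, 917, 805 and 1184 CPM in differentiation medium. P3H1 made up 28%, 28.5%, 22.1% and 42.0% of that sum in complete medium and 40.4%, 70.5%, 41.1% and 80.3% in differentiation medium, on a scale that is not per length.

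**Figure D2:**
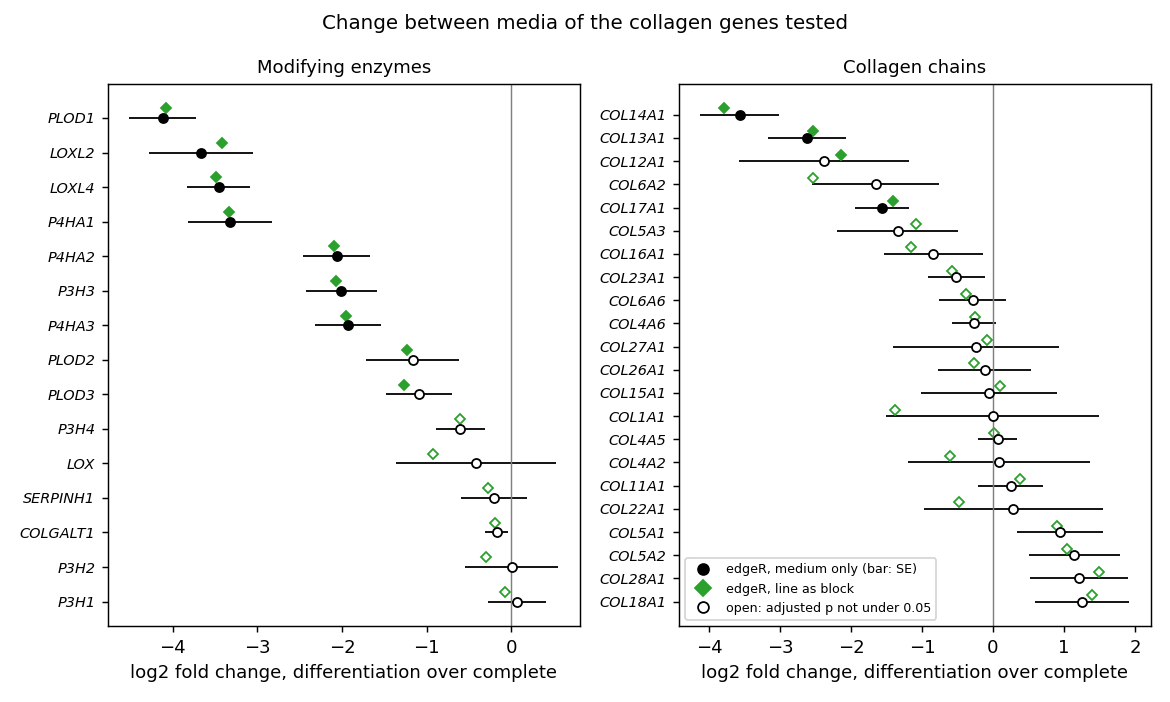
Log2 fold change of the 15 modifying genes and 22 chains that passed the filter, differentiation over complete medium, with circles and SE bars for the edgeR fit on medium alone and diamonds for the blocked fit; filled symbols have an adjusted p under 0.05. Filled circles are at or below -1.56 in both panels, and 7 of the 15 enzymes and 3 of the 22 chains are filled.

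The collagen chains gave fewer calls. Of 39 chains, 22 passed the filter, 3 were called lower (COL14A1, COL13A1 and COL17A1) and 0 higher by edgeR, beside 4.10% and 2.87% of all genes. The same 3 chains were those with an unadjusted p under 0.05. DESeq2 called 0 chains higher without the line and 2 higher with it (COL18A1, adjusted p = 0.0332, and COL28A1, adjusted p = 0.0107), in a fit that called 19.3% of all genes higher. That fit called 5 chains lower (COL17A1, COL14A1, COL6A2, COL12A1 and COL13A1), beside 18.0% of all genes, and 37.3% in either direction. The median log2 fold change of the 22 was -0.18, and -0.43 in the blocked fit, where COL12A1 joined the 3 as called lower. Leaving out 1 library gave 0 to 2 calls in edgeR, with 0 without EPN1 of differentiation medium (3 chains at unadjusted p under 0.05) and 1 without LPN of either medium, EPN1 of complete medium or Em of differentiation medium. The media did not overlap for 2 of the 22, both lower (9.96% of all genes), while 7 were lower in 4 of 4 lines (24.2%) and 2 were higher in 4 of 4 lines (23.9%).

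**Figure D3:**
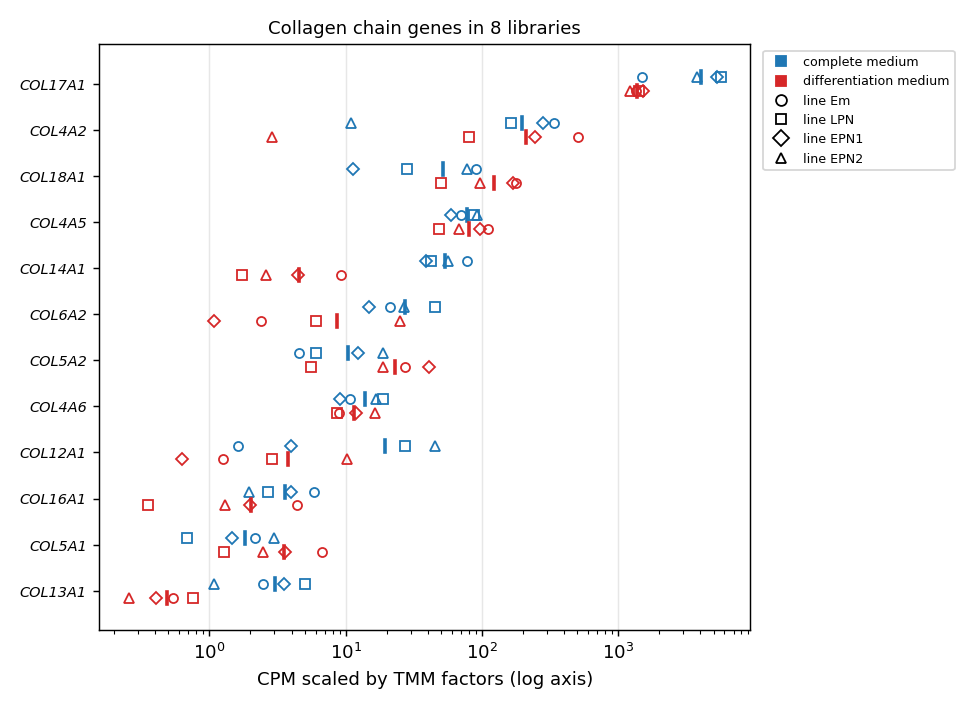
CPM (log axis) of 12 collagen chain genes in 8 libraries, drawn as for the enzymes and ordered by mean CPM, which is not per length. COL14A1 and COL13A1 separate by medium, while COL4A2, COL12A1 and COL6A2 spread widely between lines within a medium.

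The transmembrane collagens held 2 of the 3 calls. COL17A1 (ENSSSCG00000010607, chr14:114959404-115007734) encodes the chain of collagen XVII, which spans the membrane of basal epithelial cells in hemidesmosomes, the junctions that tie them to the basement membrane. It read 1482, 5626, 5309 and 3805 CPM in complete and 1346, 1406, 1519.6 and 1213 CPM in differentiation medium. LPN, EPN1 and EPN2 lay far above all differentiation libraries in complete medium, whereas Em in complete medium stood below EPN1 in differentiation medium, so the groups overlapped. Within lines, complete over differentiation medium was 1.1, 4.0, 3.49 and 3.14-fold. The log2 fold change was -1.56 ± 0.38 (adjusted p = 0.0495; 0.0448 in the blocked fit). The call held without Em of complete medium (adjusted p = 0.0174), and the adjusted p was 0.0641 to 0.130 without any one of the other 7 libraries. COL17A1 accounted for 60.5% to 92.8% of the summed CPM of all chains, on a scale that is not per length.

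KRT5, a keratin of basal epithelium, was at 4.51, 4359.7, 306 and 7653 CPM in complete and 79.4, 4812, 1431 and 11106 CPM in differentiation medium. It was lowest in Em in both media and higher in differentiation medium in 4 of 4 lines (log2 fold change 0.50 ± 1.74, adjusted p = 0.880). NGFR, another basal marker, was lower in 4 of 4 lines, from 11, 339.9, 59.6 and 331 CPM to 1.16, 305, 46.9 and 302 CPM, and KRT15 and TP63 were lower in Em and higher in the other 3 lines. Of the 6 markers in the basal list, KRT14 and KRT17 were not found in the table by symbol and could not be read. The other 4 passed the filter, and 0 were called by edgeR with or without the block. Their sum was 106 to 8294 CPM in complete and 144 to 12892 CPM in differentiation medium. The part of basal cells in the COL17A1 values was not tested.

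COL13A1 (ENSSSCG00000010256, chr14:72786780-72953093), another transmembrane collagen found at cell adhesion sites, read 2.47, 5.0, 3.53 and 1.09 CPM in complete and 0.536, 0.752, 0.407 and 0.257 CPM in differentiation medium. The media did not overlap, and EPN2 was the lowest line in both. Its log2 fold change was -2.62 ± 0.55 (adjusted p = 0.0351, and 0.0126 in the blocked fit). Without pairing, the call held without EPN2 of complete medium, and the adjusted p was 0.0573 to 0.111 without any one of the other 7 libraries. COL23A1, of the same class, was lower in 4 of 4 lines and not called (-0.51 ± 0.4, adjusted p = 0.441).

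**Figure D4:**
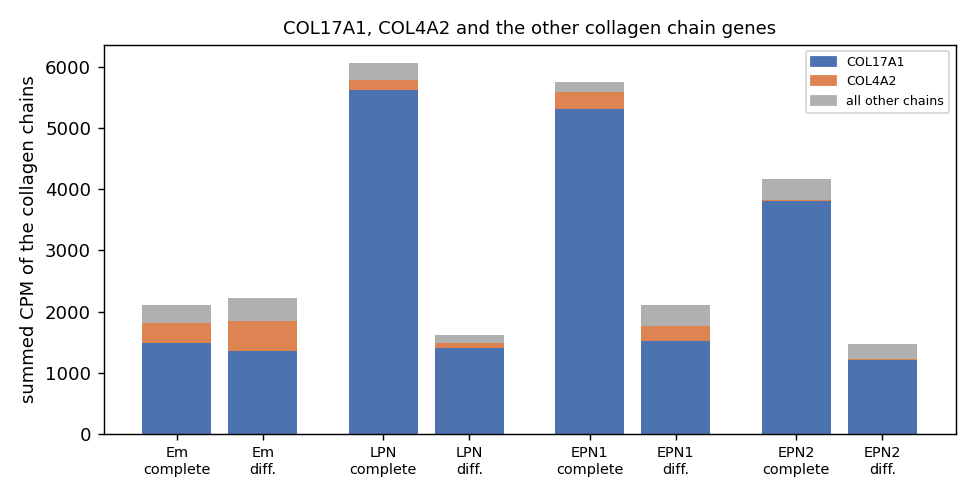
Summed CPM of the collagen chain genes in each library, as stacked bars from 0, for COL17A1, COL4A2 and all other chains; the scale is not per length. The sums in complete medium are 2113, 6063, 5757 and 4169 CPM for Em, LPN, EPN1 and EPN2, and 2225, 1620, 2112 and 1467 CPM in differentiation medium, with COL17A1 the main part of every bar.

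Collagens that sit on the surface of fibrils (FACIT) included COL14A1, the chain with the most negative log2 fold change. COL14A1 (ENSSSCG00000005997, chr4:18690197-18925111) was at 77.6, 42.1, 38.7 and 56 CPM in complete and 9.3, 1.73, 4.46 and 2.59 CPM in differentiation medium. The complete libraries were all above 38 CPM and the differentiation libraries all below 10 CPM, with Em the highest in both. The change was -3.57 ± 0.55 on the log2 scale (adjusted p = 0.0172, and 0.0086 in the blocked fit). Without pairing and without EPN1 of differentiation medium the adjusted p was 0.0682. COL12A1 (ENSSSCG00000004484, chr1:90744409-90875127), a related chain, read 1.62, 27.3, 3.99 and 45.3 CPM and 1.26, 2.86, 0.634 and 10.3 CPM. LPN and EPN2 were the high lines in complete medium, and the media overlapped although each line was lower. The adjusted p of COL12A1 was 0.239 without the line (-2.38 ± 1.2) and 0.0399 with it (-2.15 ± 0.50). COL16A1 was lower in 4 of 4 lines, from 5.83, 2.68, 3.94 and 1.97 CPM to 4.41, 0.355, 1.97 and 1.31 CPM, and was not called (-0.84 ± 0.7, adjusted p = 0.469).

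The network collagens of basement membranes were not called. COL4A2 (ENSSSCG00000009545, chr11:76996885-77161617) read 337, 163, 279.6 and 10.9 CPM in complete and 505, 80.7, 246 and 2.9 CPM in differentiation medium. EPN2 was far below the other 3 lines in both media, and the values spread more between lines than between media (0.08 ± 1.28, adjusted p = 0.974; -0.61 in the blocked fit). COL4A1, its partner chain, carries no symbol in the table, so it was outside the rule; its row was found by identifier (ENSSSCG00000044700) and read 39.8, 24, 43.9 and 1.65 CPM and 99.8, 24, 56.4 and 0.724 CPM, again lowest in EPN2 (0.73 ± 1.22, adjusted p = 0.734). In RefSeq the pair lies side by side on chromosome 11, COL4A1 at chr11:76858332-76997409, and their ends overlap. How reads from the shared stretch were assigned was not examined. COL4A5 was at 69.7, 87.3, 58.8 and 91.9 CPM and 111, 47.9, 95.9 and 67.4 CPM, higher in Em and EPN1 and lower in LPN and EPN2 in differentiation medium (0.07 ± 0.27, adjusted p = 0.898). COL4A6 read 10.7, 18.9, 9.09 and 16.6 CPM and 8.89, 8.68, 11.8 and 16.5 CPM (-0.27 ± 0.32, adjusted p = 0.616).

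COL18A1 (ENSSSCG00000038089, chr13:207907835-207984082), the basement membrane chain that releases endostatin, had the most positive log2 fold change among the chains. It was at 90.1, 28.2, 11.3 and 77.1 CPM in complete and 176, 50.2, 169.7 and 97.2 CPM in differentiation medium. All 4 lines were higher in differentiation medium, by 1.96, 1.78, 15.1 and 1.26-fold, and EPN1 went from the lowest complete value to nearly the highest differentiation value, while the media overlapped. The log2 fold change was 1.25 ± 0.66 (adjusted p = 0.257 without and 0.162 with the line). COL28A1 was the other chain past the filter that was higher in 4 of 4 lines and was not called by edgeR (1.21 ± 0.69, adjusted p = 0.294).

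Of the chains of collagen VI, which forms beaded filaments, COL6A2 (ENSSSCG00000028022) read 21.1, 45.1, 14.9 and 26.8 CPM in complete and 2.37, 6.03, 1.09 and 24.8 CPM in differentiation medium. Em, LPN and EPN1 lay well below all complete libraries, whereas EPN2 stayed within their range. The adjusted p was 0.270 over all libraries (-1.65 ± 0.9), 0.0523 in the blocked fit (-2.54 ± 0.67) and 0.0467 without EPN2 of differentiation medium. The partner chains were near the floor: COL6A1 had 22, 6, 1 and 1 counts in complete and 86, 3, 3 and 0 in differentiation medium, and COL6A3 had 1, 0, 0 and 0 and 26, 0, 0 and 0. Em in differentiation medium held most counts of both.

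The fibrillar collagens were low and uneven between lines. COL5A2 (ENSSSCG00000016035, chr15:93611856-93981131), a chain of the collagen V that starts fibrils, read 4.57, 6.07, 12.2 and 18.7 CPM in complete and 27.3, 5.55, 40.5 and 18.8 CPM in differentiation medium. COL5A1, its partner, read 2.17, 0.682, 1.47 and 2.98 CPM and 6.75, 1.27, 3.58 and 2.48 CPM. COL5A2 was higher in differentiation medium in Em and EPN1 and close to its complete value in LPN and EPN2, and COL5A1 was higher in Em, LPN and EPN1, with overlap between media for both, and neither was called (COL5A2 1.15 ± 0.64, adjusted p = 0.282; COL5A1 0.95 ± 0.61, adjusted p = 0.347). COL3A1 (ENSSSCG00000016034, chr15:93556914-93595678), the chain of collagen III, which lies beside COL5A2 on chromosome 15, had 1, 2, 1 and 0 counts in complete and 244, 8, 268 and 2 in differentiation medium and did not pass the filter. Its counts sat mostly in Em and EPN1, and the complete libraries were all at or under the floor. The chains of collagen I gave 26, 9, 16 and 2 counts in complete and 56, 0, 0 and 2 in differentiation medium for COL1A1, and 0, 0, 0 and 9 and 85, 1, 11 and 18 for COL1A2. COL1A1 passed the filter and was not called (-0.01 ± 1.5, adjusted p = 0.998). Summed over the 10 fibrillar chains, differentiation over complete medium was 5.39-fold in Em, 0.919-fold in LPN, 3.39-fold in EPN1 and 0.945-fold in EPN2, with 1 library per line and medium and no test of the difference between lines.

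**Figure D5:**
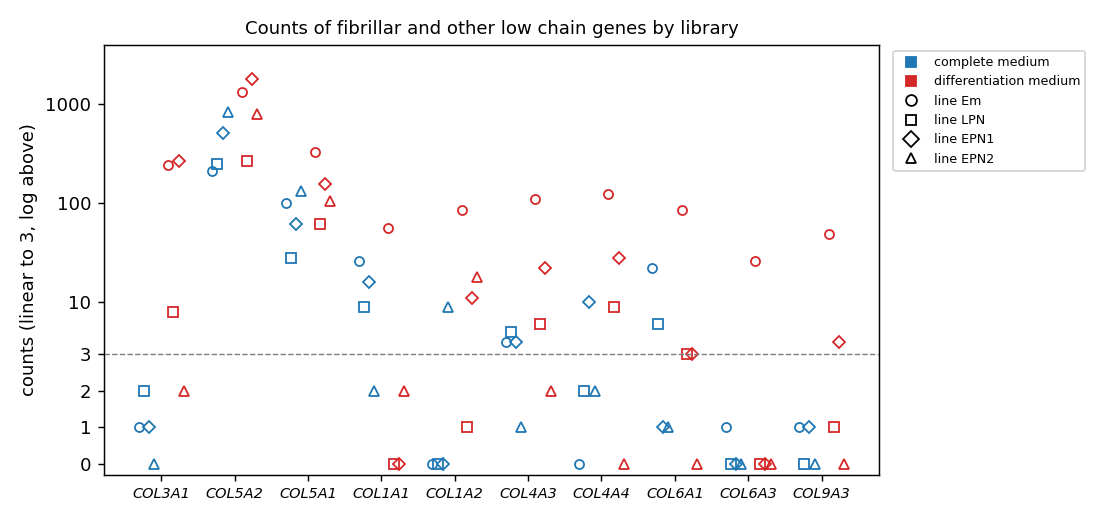
Counts per library (linear to 3, log above; dashed line at the floor of 3 counts) of fibrillar and other low chain genes, with complete medium in blue, differentiation medium in red and line by marker shape. Em in differentiation medium is the highest or second highest library for each gene drawn, with EPN1 above it for COL3A1 and COL5A2.

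Markers of fibroblasts and stellate cells, the usual source of these chains, were measured beside them. All 12 markers were in the table, 4 passed the filter and 0 were called by edgeR, and 1 (PDGFRB) was called lower in the blocked fit. Their summed level was 239 to 476 CPM in complete and 218 to 591 CPM in differentiation medium, and THY1 with VIM made up most of it in each library. DPT and MFAP5 had at most 3 counts in any library. In Em of differentiation medium, where COL1A1 and COL1A2 were highest, LUM had 1 count, DCN 8, RGS5 13 and ACTA2 15, the last 2 at their highest of any library, and THY1 was at 533 CPM. PDGFRA, under the filter, had 2, 4, 1 and 4 counts in complete and 14, 29, 25 and 6 in differentiation medium, higher in 4 of 4 lines without overlap. Of the endothelial, immune, Schwann cell and acinar markers, 4, 4, 1 and 0 passed the filter. EdgeR called 0 of those tested in the fit on medium alone. Only 4 of 8 acinar markers were in the table and 0 were tested, so that list could give no call. The blocked fit called 1, the endothelial marker TIE1, lower (adjusted p = 0.0462, and 0.0515 without the block). CDH19, CPB1 and PNLIP were at 0 in every library, and CDH5, CD3E, TYROBP and SOX10 had at most 3 counts. Other markers of these lists were well above the floor. ERBB3 was at 731 to 1070 CPM and PECAM1 at 7.96 to 17.6 CPM. KDR reached 33.9, CD14 70.1, CD68 49.8 and LYZ 9.02 CPM in their highest library. The part of such cells in the counts of the low chains was not tested.

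The remaining 7 chains that passed the filter (COL5A3, COL6A6, COL11A1, COL15A1, COL22A1, COL26A1 and COL27A1) had log2 fold changes of -1.34 to 0.29 and were not called, with adjusted p from 0.342 to 0.977. Of the other chains under the filter, COL4A3 and COL4A4 had up to 110 and 124 counts, both in Em of differentiation medium, and their RefSeq spans overlap at one end on chromosome 15. COL21A1, COL9A3, COL8A1, COL8A2, COL25A1, COL11A2 and COL9A1 had at most 50 counts in any library. COL10A1, COL2A1, COL19A1 and COL6A5 had at most 2 counts in any library and were not detectable at this depth.

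Further genes, called pathway genes below, were read from the same fit, with 66 tested in 9 lists. The lists covered collagen folding, secretion, processing, receptors and degradation, fibril partners, proline and glycine supply, hemidesmosomes and targets of hypoxia-inducible factor. Over all genes tested, edgeR called 4.10% lower and 2.87% higher, and the blocked fit 10.4% lower and 9.48% higher. Of 10 folding partners tested, 2 were called lower and 0 higher by edgeR (7 lower in the blocked fit). P4HB, the beta subunit that pairs with the P4HA subunits, read 1015, 987, 1484 and 687 CPM in complete and 599, 359.7, 487 and 427 CPM in differentiation medium (-1.16 ± 0.26, adjusted p = 0.0417). TMEM38B, a potassium channel of the endoplasmic reticulum, changed by -1.36 ± 0.24 (adjusted p = 0.0227). CRTAP and PPIB, the partners of P3H1, had log2 fold changes of -0.89 ± 0.38 (adjusted p = 0.178; -0.88 ± 0.16, adjusted p = 0.0226 in the blocked fit) and -0.12 ± 0.25 (adjusted p = 0.789). Of 8 secretion genes tested, the coat components SEC23A (-0.83 ± 0.17, adjusted p = 0.0349) and SEC24D (-0.81 ± 0.18, adjusted p = 0.0423), which load procollagen for export, were called lower. The blocked fit called 4 of the 8 lower, adding CREB3L1 (adjusted p = 0.0209) and TANGO6 (adjusted p = 0.0306). PYCR1, which makes proline, was the only 1 of 6 proline and glycine supply genes called, from 138, 70, 56 and 46.3 CPM to 12.3, 6.18, 8.49 and 8.29 CPM (-3.14 ± 0.4, adjusted p = 0.0116).

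Of 8 hemidesmosome genes tested, 3 were called lower beside COL17A1 (4.10% of all genes), and the blocked fit called 4 lower, adding LAMB3 (adjusted p = 0.0156), and 1 higher, DST (adjusted p = 0.0369). ITGA6 and ITGB4, the integrin pair of the hemidesmosome, changed by -1.80 ± 0.39 (adjusted p = 0.0377) and -1.86 ± 0.36 (adjusted p = 0.0283), and LAMA3, the alpha chain of their laminin ligand, by -1.56 ± 0.28 (adjusted p = 0.0235). ITGB4 read 496, 1582, 1244 and 1402 CPM in complete and 258, 426, 336 and 279.9 CPM in differentiation medium. Em was again the lowest complete library. Of 6 collagen degrading enzymes tested, MMP2 was called higher, from 0.802, 3.1, 2.02 and 1.06 CPM to 21, 9.62, 22.5 and 5.96 CPM (3.08 ± 0.6, adjusted p = 0.0294), and MMP9 lower, from 0.91, 2.34, 3.41 and 8.5 CPM to 0.0619, 0.0626, 0.0226 and 0.0467 CPM (-6.20 ± 0.83, adjusted p = 0.0121). The differentiation libraries of MMP9 were at or under the floor of 3 counts, so its fitted fold change depends on the prior count. Of 5 procollagen processing, 7 receptor and 7 fibril partner genes tested, edgeR called 0; in the blocked fit it called TLL1 and COMP lower. Among the 10 called genes named from the folding, secretion, supply, hemidesmosome and degradation lists, P4HB and ITGA6 stayed called in 1 of the 8 fits that left out a library, TMEM38B, SEC24D, ITGB4 and MMP2 in 2, SEC23A in 3, LAMA3 in 4, and PYCR1 and MMP9 in 7, with adjusted p up to 0.119 in the others.

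Several of the enzymes, among them P4HA1, P4HA2, PLOD1, PLOD2, LOX, LOXL2 and LOXL4, are known targets of hypoxia-inducible factor. Of 9 other targets of that factor that were tested, 8 were called lower and 0 higher, beside 4.10% and 2.87% of all genes. The blocked fit called 7 of them lower, beside 10.4% of all genes. The 9 targets had a median log2 fold change of -2.72, and their summed level was 2118 to 4690 CPM in complete and 353 to 565 CPM in differentiation medium. EGLN3, which hydroxylates the factor itself, read 699.9, 852, 1250.0 and 782 CPM and 96, 64.7, 81.5 and 142 CPM (-3.22 ± 0.31, adjusted p = 0.00568). PDK1 (-2.06 ± 0.2, adjusted p = 0.00581), BNIP3 (-4.23 ± 0.43, adjusted p = 0.00681) and NDRG1 (-2.46 ± 0.26, adjusted p = 0.00728) fell as well, and all 4 were called in each of the 8 fits that left out 1 library. The other 4 called targets kept the call in fewer of these fits, VEGFA and KDM3A in 2, CA9 in 3 and ANKRD37 in 5. The part of this factor in the enzyme values was not tested.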

How the data were processed

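Polyadenylated RNA of 8 cultures was sequenced, and the authors quantified reads with salmon in an nf-core pipeline against a pig annotation of their own. The deposited table holds estimated counts; the methods speak of a gene length scaled output, and whether that scaling is in these values was not settled; the submitters' processing notes name Sscrofa11.1. Of 56060 rows, features of 1 gene, marked as isoforms or extended ends, were summed to 30282 genes and rounded to whole counts; 78.7% of the deposited values above 0 were whole. A further 8 rows for reporter constructs, with 0.00142% of counts, were left out. Totals of 40553593 to 47910657 counts per library set the precision.

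Libraries were grouped by title and compared with edgeR 4.0.16 (quasi-likelihood test, medium as the only term, TMM, filterByExpr defaults) in R 4.3.3, with Benjamini-Hochberg adjustment over all 14475 genes tested. The SE is the absolute log2 fold change divided by the square root of F. Alternatives were the line as a block, DESeq2 1.42.0 with and without the line, RLE factors, no filter, no extended rows, and leaving out each library. DESeq2 was the authors' tool. Same-line libraries deviated together (r = 0.400 to 0.658 across genes, against -0.479 to 0.242 between lines), and the line is in the column names, so the lines pair the media. P-values of the fits without the line measure the spread between these cultures, differences between lines included. Those with the line as a block measure the spread that remains once line differences are fitted. Fits were tested on simulated data.

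Members and lists were chosen with earlier results of these data known. The text names every enzyme and chaperone past the filter, chains at adjusted p under 0.05 in the edgeR fit with or without the block, the 12 chains of highest mean CPM, chains under the filter with more than 3 counts in a library, and up to 4 called genes per pathway list. COL23A1, COL28A1, COL1A1, CRTAP, PPIB, TLL1, COMP, KRT5, the 7 remaining chains and the other markers given singly were chosen after their values were seen, as was COL4A1. The same holds for TANGO6, CREB3L1, LAMB3, DST, VEGFA, KDM3A, CA9 and ANKRD37. COL7A1, COL9A2, COL20A1 and COL24A1 were not analysed here. Positions are RefSeq's for Sscrofa11.1, matched by symbol for 56 of 57 genes. A pair of cell type markers is not reported here.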

Additional observations from a re-analysis of the deposited data

Results flagged for a closer look

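In 8 of 103 groups of 4 libraries, 1 library stood apart from the other 3 by a gap past Dixon's critical value. For normally distributed values chance flags about 1 in 20 groups. That rate need not hold for low CPM bounded at 0. Em in differentiation medium stood apart for 4 chains, COL6A1 at 1.774 CPM, COL1A1 at 1.155 CPM, COL9A3 at 1.011 CPM and COL6A3 at 0.5364 CPM, where the other 3 lines were at 0 to 0.0905 CPM. Em in complete medium was the high library for LOXL1, at 7.496 CPM against at most 0.878 CPM in the other lines, and for COL8A1, at 0.585 CPM against at most 0.0962 CPM. EPN2 in complete medium was the high library for COL21A1, at 1.13 CPM against at most 0.173 CPM, and for COL1A2, at 0.2035 CPM with the other 3 lines at 0. Except for COL1A1, none of these genes passed the filter on low counts.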

How the results depend on the processing

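Counts of calls moved with the fit. Pairing the media with the line as a block gave 2884 genes instead of 1009, 4 chains instead of 3, 9 enzymes instead of 7 and 28 other pathway genes instead of 18; all 10 chains and enzymes of the first fit stayed among the 13, and COL12A1, PLOD2 and PLOD3 were added. DESeq2 without the line gave 2884 genes and 28 pathway genes, and with the line 5393 genes, 7 chains and 43 pathway genes. Without the filter, 506 genes and 1 chain were called, and COL17A1 (adjusted p = 0.0656), COL13A1 (0.0525) and P3H3 (0.0509) missed the threshold; with RLE factors COL17A1 did (0.0514). Leaving out 1 library gave 70 to 1199 genes, 0 to 2 chains, 2 to 7 enzymes and 4 to 20 pathway genes, in edgeR, with each low value when EPN1 of differentiation medium was left out; 3 chains and 10 enzymes then had an unadjusted p under 0.05. Among the 15 enzymes tested and the 12 chains of highest mean CPM, genes that were not called changed sign. COL4A2 went to -0.61 with the block and -0.60 in DESeq2 with the line, and P3H1 to -0.075 and -0.056. P3H2 went to -0.30, -0.28 and, without extended rows, -0.000125. Of the other chains, COL22A1 went from 0.29 to -0.48 and COL15A1 from -0.05 to 0.10 with the block. COL1A1 went from -0.01 to -1.38 with the block, and to between -4.10 and 0.50 without 1 library. Leaving out 1 library gave -0.84 to 0.49 for COL4A2 (lowest without Em of differentiation medium), -0.12 to 0.25 for COL4A5 (the same library), -0.30 to 0.26 for P3H1 (EPN2 of differentiation medium), -0.73 to 0.27 for P3H2 (EPN1 of differentiation medium) and -1.35 to 0.19 for LOX (highest without Em of complete medium). The cause was not tested. With 1 library per line and medium, differences between lines have no replicate check.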
